A study of Drosophila melanogaster with 8 samples.

Results

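The transcripts described are those whose symbol marks them as noncoding RNAs of Drosophila melanogaster: symbols made of CR and digits, symbols that begin with lncRNA, asRNA, snoRNA or snRNA, symbols that contain a CR number after a colon, and symbols that begin with mt, the prefix of genes on the mitochondrial genome. They were chosen by a rule on the symbol, although earlier results of these data were known when the choice was made. Each symbol was represented by the probe set with the highest mean over all arrays. The rule found 101 members among 11982 named genes, of which 34 were bright enough to be tested. No probe set with a single mt, snoRNA or snRNA symbol was found, so the set holds 0 mitochondrial-encoded RNAs and is called noncoding RNAs here. By the RefSeq gene table, 77 members are long noncoding RNAs, 13 antisense RNAs, 7 pseudogenes, 2 hairpin RNAs (entered as ncRNA), 1 an rRNA pseudogene and 1 (CR17567, now CG46059) a protein-coding gene.

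The arrays were made from S2 cells, a cell line that was established from late embryos and has features of haemocytes (fly blood cells), labelled wild type in genotype. The 4 groups were ribosome-bound RNA of cells given double-stranded RNA (dsRNA) against DENR, ribosome-bound RNA of cells given dsRNA against GFP, total RNA of DENR dsRNA cells and total RNA of GFP dsRNA cells, with 2 arrays in each. DENR acts with MCTS1 in re-initiation of translation, GFP has no target in the fly, and ribosome-bound RNA is the pool of the monosome and polysome peaks of a gradient. The dose and length of the dsRNA treatment are not given in the sources used here. The design text calls the arrays of a group biological replicates. All levels are log2 signals on the RMA scale, relative to the other transcripts on the same array, so that a difference of 1 is a doubling. In RNA of whole cultures, fewer cells of a type and less RNA per cell cannot be told apart.

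Long noncoding RNAs are transcripts without an annotated long reading frame, although some are found with ribosomes. Antisense RNAs are made from the strand opposite another gene. Hairpin RNAs (hpRNA) fold back on themselves and are cut by Dicer into small interfering RNAs that are loaded into an Argonaute protein. Pseudogenes are decayed copies of other genes, and a probe set for such a copy may also bind the transcript of the intact gene.

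The DENR transcript had a log2 signal of 5.40 and 4.46 in ribosome-bound RNA of DENR dsRNA cells, against 8.41 and 8.26 in that of GFP dsRNA cells, and fell by 3.40 ± 0.25 (SE, n = 2 per group, limma adjusted p = 0.000203). In total RNA it was 7.38 and 7.60 in DENR dsRNA cells, against 8.28 and 8.18 in GFP dsRNA cells, and the difference of -0.74 ± 0.25 did not pass the test (adjusted p = 0.170). All 12 haemocyte markers measured were bright enough to be tested, and 11 had a mean of at least 5. Their log2 signals added up to 85.69 in DENR and 96.11 in GFP ribosome-bound RNA, and to 82.33 in DENR and 90.53 in GFP total RNA. Such a sum of logs is not an amount of RNA. He, Hml, NimC1 and Sr-CI were called lower in DENR than in GFP dsRNA cells in each fraction, and the other 8 markers were not called. The muscle markers (3, means 1.27 to 2.03), fat body markers (3, means 2.42 to 2.64) and neuronal markers (5, means 1.77 to 3.41) were dim, while the germline genes aub and piwi had means of 8.18 and 6.90 beside means of at most 2.87 for the other 3 germline markers. On the first principal component of all tested transcripts, which held 65.8% of the variance, the first DENR total array lay at -9.0, apart from the second at -27.3 and the GFP total arrays at -29.6 and -35.1. Values without that array are given below.

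Most of the noncoding RNAs were near the lower end of the signal range. A transcript was tested if it was among the brightest 60% of all features, which required a mean log2 signal of at least 2.12. Of the 101 members, 33.7% passed, against 68.1% of all named genes. The 67 untested members had means between 1.16 and 2.06, with a median of 1.68, and none exceeded 3 on any array. The highest single value among them was 2.58, for lncRNA:CR43461. Just inside the limit lay lncRNA:CR31781 with a mean of 2.13, and just outside it lay lncRNA:cherub, asRNA:CR30267 and asRNA:CR31845 with means of 2.06. The first of these, cherub, is a long noncoding RNA known from dividing neuroblasts. Low signal on an array without detection calls does not show that an RNA was absent.

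The 34 tested members had means between 2.13 and 10.89, and 10 of them had a mean of at least 5. Signals of different probe sets depend on the probes and were not compared as amounts of RNA. lncRNA:CR32368, on chromosome arm 3L, had the highest mean, 10.89, and was brighter than 99.1% of all features. It was followed by lncRNA:CR43242 on 2L with a mean of 8.70, lncRNA:CR42862 on 3L with 8.47, lncRNA:alphagamma-element:CR32865 on 3R with 8.08 and lncRNA:CR32027 on 3L with 6.99. The alphagamma element lies between Hsp70 genes in the RefSeq table and exists in repeated copies, so its probe set may read more than 1 copy. lncRNA:iab8, the bithorax-complex RNA that hosts mir-iab-8, was the only tested lncRNA besides the alphagamma element whose symbol on the array has a name of its own. It had log2 signals of 2.73 and 2.56 in DENR and 2.74 and 2.55 in GFP ribosome-bound RNA, and of 2.18 and 2.62 in DENR and 2.59 and 2.39 in GFP total RNA. These groups overlapped in every comparison, and iab8 passed no test.

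**Figure D1:**
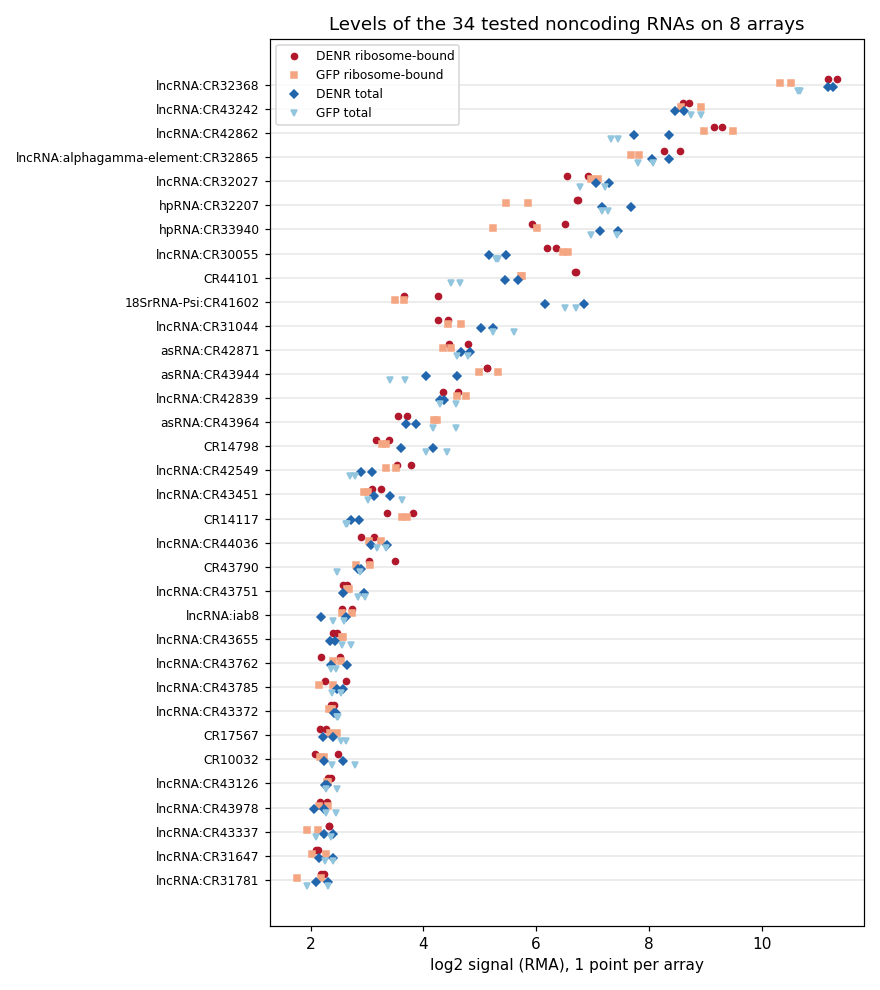
Log2 signal (horizontal axis, RMA scale) of the 34 tested noncoding RNAs, 1 row each, ordered by mean signal; each point is 1 of 8 arrays, coloured by group. The 10 brightest members have means of at least 5, while 14 members lie below a mean of 3.

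The first question was which noncoding RNAs were more, or less, abundant among ribosome-bound than among total RNA. In DENR dsRNA cells 6 of the 34 members were higher in ribosome-bound RNA and 4 were lower, with a limma p below 0.05 after Benjamini-Hochberg adjustment over all 10262 features. Of all features, 9.13% were called higher and 5.85% lower in this comparison, so the shares of the members (17.6% and 11.8%) were above the background. In GFP dsRNA cells 6 members were higher and 5 lower, against 18.7% higher and 11.0% lower over all features, and there the shares of the members (17.6% and 14.7%) were near the background. The median difference was -0.02 for members and -0.02 for all features in DENR dsRNA cells, and -0.14 and -0.04 in GFP dsRNA cells. All calls came from the 20 members with a mean of at least 3, of which 10 were called in DENR and 11 in GFP dsRNA cells. The 14 dimmer members gave 0 calls by limma in either treatment, with differences between -0.17 and 0.41 in DENR and between -0.38 and 0.25 in GFP dsRNA cells. The share called among all features of like brightness was not counted. The counts of brighter and dimmer members are therefore not read as a trait of noncoding RNAs.

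Of the members called in DENR dsRNA cells, 10 of 10 were also called in GFP dsRNA cells, and in GFP dsRNA cells 10 of 11 were also called in DENR dsRNA cells, with CR14798 the exception. These comparisons share no arrays but share the estimate of spread. The same overlap was not counted over all features, so it is not read as a trait of noncoding RNAs. The count of 10 in DENR dsRNA cells rested on single arrays. It was 11 without the first and 5 without the second DENR total array, and 6 without the first and 4 without the second DENR ribosome-bound array. Over all features the count, 1537 with every array, was 1569, 854, 609 and 687 in these settings. In GFP dsRNA cells most of the members called stayed called whichever array was left out. Calls over all features fell there when an array of either GFP group or of the DENR ribosome-bound group was left out. They rose when a DENR total array was left out.

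lncRNA:CR42862 (probe set 1640472_at) had the largest excess in ribosome-bound RNA among members. In DENR dsRNA cells its log2 signal was 9.16 and 9.29 in ribosome-bound RNA, against 8.36 and 7.74 in total RNA. In GFP dsRNA cells it was 8.97 and 9.50 in ribosome-bound RNA, against 7.32 and 7.45 in total RNA. The ribosome-bound arrays lay above the total arrays of either treatment without overlap. The difference was 1.18 ± 0.22 in DENR dsRNA cells (SE, n = 2 per group, 2.26-fold, adjusted p = 0.00719) and 1.85 ± 0.22 in GFP dsRNA cells (3.60-fold, adjusted p = 0.000328). Without the first DENR total array the DENR value was 1.49, and without the second DENR ribosome-bound array it was 1.11 and missed the threshold (adjusted p = 0.0577). Its other probe sets did not all move this way. A probe set with a mean of 3.72 gave -0.14 in DENR and -0.45 in GFP dsRNA cells, and another with a mean of 2.28 gave 0.47 and 0.96, so the excess holds for the brightest of 3 probe sets and was not shared by all.

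asRNA:CR43944 (1641593_at, arm 3L), an antisense RNA that lies wholly within the gene fbl, was higher in ribosome-bound RNA of both treatments. In DENR dsRNA cells it gave 5.13 and 5.13 in ribosome-bound RNA, against 4.60 and 4.04 in total RNA. Its signal in GFP dsRNA cells was 4.99 and 5.32 in ribosome-bound RNA, against 3.68 and 3.41 in total RNA. The ribosome-bound arrays were alike in both treatments, and the total arrays were the ones that lay further apart. The difference was 0.81 ± 0.20 in DENR dsRNA cells (1.76-fold, adjusted p = 0.0220) and 1.61 ± 0.20 in GFP dsRNA cells (3.05-fold, adjusted p = 0.000368). The DENR call rested on single arrays. It was 1.09 without the first DENR total array, but missed the threshold without the second (0.53, adjusted p = 0.137) and without the first or second DENR ribosome-bound array (0.81 each, adjusted p = 0.116 and 0.108).

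CR44101 (1628918_at, arm 2R), which RefSeq names lncRNA:dntRL, was higher by nearly the same amount in both treatments. It gave 6.69 and 6.71 in DENR ribosome-bound RNA, against 5.45 and 5.67 in DENR total RNA. It gave, in GFP dsRNA cells, 5.73 and 5.74 in ribosome-bound RNA, against 4.65 and 4.48 in total RNA. Replicate arrays of this RNA differed by little beside the gap between the fractions. The difference was 1.14 ± 0.14 in DENR dsRNA cells (2.20-fold, adjusted p = 0.000656) and 1.18 ± 0.14 in GFP dsRNA cells (2.26-fold, adjusted p = 0.000270), and both calls held without any single array.

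lncRNA:CR30055 (1629821_at, arm 2R), which lies wholly within Sin3A, the gene of a transcriptional corepressor, was also higher. It gave 6.19 and 6.35 in DENR ribosome-bound RNA, against 5.46 and 5.17 in DENR total RNA, and 6.56 and 6.48 in GFP ribosome-bound RNA, against 5.32 and 5.29 in GFP total RNA. The total arrays were alike and every ribosome-bound array lay above them. The difference was 0.96 ± 0.14 in DENR dsRNA cells (1.94-fold, adjusted p = 0.00208) and 1.21 ± 0.14 in GFP dsRNA cells (2.32-fold, adjusted p = 0.000290), and both calls held without any single array. Sin3A had no tested probe set of its own here.

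The other members that were higher in ribosome-bound RNA were dimmer. CR14117 (1629000_at, arm 3L), a pseudogene, gave 3.81 and 3.35 in DENR ribosome-bound RNA, against 2.72 and 2.85 in DENR total RNA, and 3.62 and 3.70 in GFP ribosome-bound RNA, against 2.63 and 2.65 in GFP total RNA. Its difference was 0.80 ± 0.16 in DENR dsRNA cells (adjusted p = 0.00970) and 1.02 ± 0.16 in GFP dsRNA cells (adjusted p = 0.00144). Without the first DENR ribosome-bound array the DENR call was lost (0.57, adjusted p = 0.0936). lncRNA:CR42549 (1627248_at, arm 3R), which lies wholly within the gene mura, gave 3.53 and 3.77 in DENR ribosome-bound RNA, against 3.08 and 2.89 in DENR total RNA, and 3.34 and 3.51 in GFP ribosome-bound RNA, against 2.79 and 2.69 in GFP total RNA. Its difference was 0.66 ± 0.15 in DENR dsRNA cells (adjusted p = 0.0142) and 0.68 ± 0.15 in GFP dsRNA cells (adjusted p = 0.00633). For CR42549 the groups did not overlap, but the DENR call was lost without the second DENR total array (0.57, adjusted p = 0.0848) or the second DENR ribosome-bound array (0.54, adjusted p = 0.120), and the GFP call without the second GFP ribosome-bound array (0.59, adjusted p = 0.0629).

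**Figure D2:**
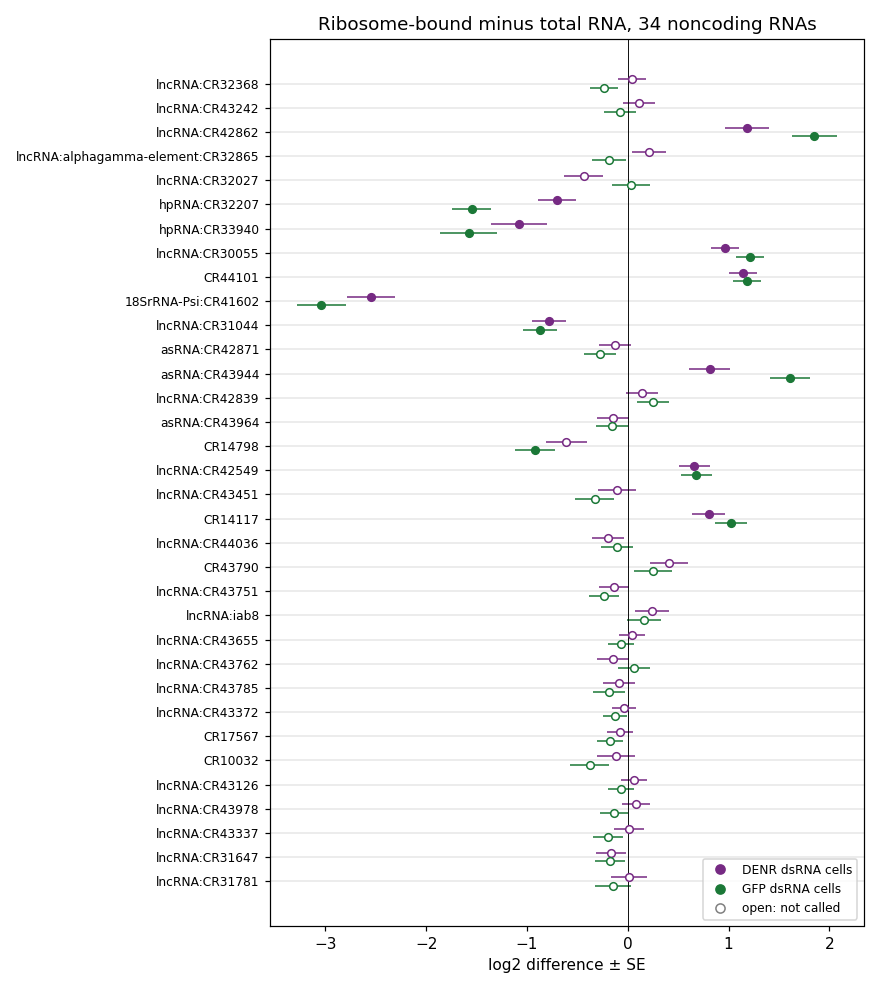
Log2 difference of ribosome-bound minus total RNA (horizontal axis, ± SE from limma) for each of 34 noncoding RNAs, in DENR dsRNA cells and GFP dsRNA cells; filled points were called and open points were not. Called members lie on the same side of 0 in both treatments, from 18SrRNA-Psi:CR41602 at -3.04 to lncRNA:CR42862 at 1.85 in GFP dsRNA cells.

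Among members that were lower in ribosome-bound RNA, 18SrRNA-Psi:CR41602 (1637786_s_at, on X) had the largest difference. It is annotated as a decayed copy of the gene for the RNA of the small ribosomal subunit, and its probe set is of a type that can bind several transcripts, so a signal from intact ribosomal RNA cannot be told apart from its own. In DENR dsRNA cells it gave 4.26 and 3.65 in ribosome-bound RNA, against 6.16 and 6.84 in total RNA. In GFP dsRNA cells it gave 3.65 and 3.50 in ribosome-bound RNA, against 6.51 and 6.71 in total RNA. All ribosome-bound arrays were far below all total arrays. The difference was -2.55 ± 0.24 in DENR dsRNA cells (5.84-fold lower, adjusted p = 0.000208) and -3.04 ± 0.24 in GFP dsRNA cells (8.20-fold lower, adjusted p = 5.00e-05). It stayed called under all 21 alternatives, with -2.89 in DENR dsRNA cells without the first DENR total array.

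Both hairpin RNAs were lower in ribosome-bound RNA. hpRNA:CR32207 (1632978_at, arm 3L) gave 6.72 and 6.74 in DENR ribosome-bound RNA, against 7.17 and 7.69 in DENR total RNA. GFP dsRNA cells gave 5.86 and 5.47 in ribosome-bound RNA, against 7.16 and 7.28 in total RNA. The total arrays of both treatments lay in 1 range, while GFP ribosome-bound RNA lay below DENR ribosome-bound RNA. The difference was -0.70 ± 0.19 in DENR dsRNA cells (1.63-fold lower, adjusted p = 0.0357) and -1.55 ± 0.19 in GFP dsRNA cells (2.93-fold lower, adjusted p = 0.000373). The GFP call held under all 21 alternatives. The DENR call was lost under 9 of 21, among them without the second DENR total array (-0.44, adjusted p = 0.220) and without the first or the second DENR ribosome-bound array (-0.69 and -0.71, adjusted p = 0.161 and 0.143), and its value was -0.97 without the first DENR total array.

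hpRNA:CR33940 (1639211_at, arm 3L), which lies next to brv1 in the RefSeq table, as hpRNA:CR32207 does, gave 6.51 and 5.92 in DENR ribosome-bound RNA, against 7.14 and 7.45 in DENR total RNA. GFP dsRNA cells gave 6.01 and 5.24 in ribosome-bound RNA, against 6.97 and 7.43 in total RNA. Replicates of this RNA were further apart than those of CR32207, but the fractions did not overlap. The difference was -1.08 ± 0.28 in DENR dsRNA cells (2.11-fold lower, adjusted p = 0.0274) and -1.58 ± 0.28 in GFP dsRNA cells (2.98-fold lower, adjusted p = 0.00234). Without the second DENR total array or the second DENR ribosome-bound array the DENR call was lost (-0.92 and -0.78, adjusted p = 0.126 and 0.205).

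lncRNA:CR31044 (1627274_at, arm 3R) overlaps the genes of the microRNAs mir-279 and mir-996. It gave 4.44 and 4.26 in DENR ribosome-bound RNA, against 5.02 and 5.24 in DENR total RNA, and 4.44 and 4.67 in GFP ribosome-bound RNA, against 5.61 and 5.24 in GFP total RNA. Its difference was -0.78 ± 0.17 in DENR dsRNA cells (1.72-fold lower, adjusted p = 0.0125) and -0.87 ± 0.17 in GFP dsRNA cells (1.83-fold lower, adjusted p = 0.00347). The values in both treatments were close to each other. The DENR call was lost without the second DENR total array (-0.67, adjusted p = 0.0719) and without the first or second DENR ribosome-bound array (-0.87 and -0.69, adjusted p = 0.0523 and 0.0982). CR14798 (1628701_a_at, on X), a pseudogene, gave 3.39 and 3.15 in DENR ribosome-bound RNA, against 3.60 and 4.17 in DENR total RNA, and 3.27 and 3.34 in GFP ribosome-bound RNA, against 4.42 and 4.04 in GFP total RNA. It was called only in GFP dsRNA cells (-0.92 ± 0.20, adjusted p = 0.00744), and that call was lost without the first GFP total array (-0.73, adjusted p = 0.0514). In DENR dsRNA cells its difference of -0.61 missed the threshold, and it was -0.90 without the first DENR total array (adjusted p = 0.0131) but -0.33 without the second (adjusted p = 0.410).

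**Figure D3:**
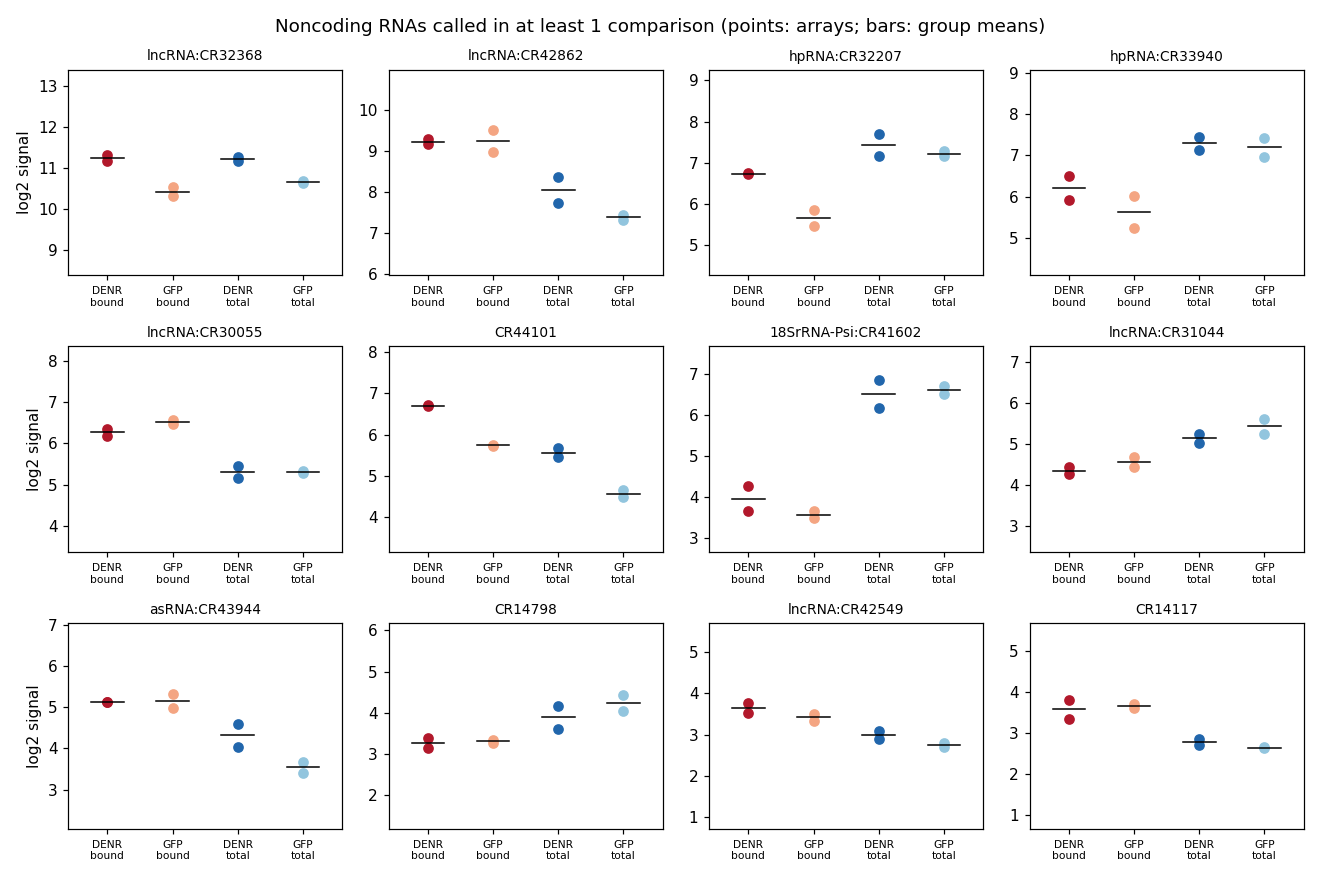
Log2 signal (vertical axis, RMA scale) on each array for the 12 noncoding RNAs called in at least 1 comparison, with a bar at each group mean; groups run from DENR ribosome-bound and GFP ribosome-bound to DENR total and GFP total. In 18SrRNA-Psi:CR41602 the 4 ribosome-bound arrays lie at 3.50 to 4.26, below the total arrays at 6.16 to 6.84, and in CR44101 both DENR groups lie above their GFP groups.

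By type, the 24 tested long noncoding RNAs gave 4 higher and 1 lower call in each treatment. Their share called, 20.8%, lay above the 15.0% of all features in DENR dsRNA cells and below the 29.6% in GFP dsRNA cells. The 3 antisense RNAs gave 1 higher call in each treatment, and the 3 pseudogenes 1 higher call in DENR and 1 higher and 1 lower call in GFP dsRNA cells. The 2 hairpin RNAs and the rRNA pseudogene gave lower calls only, and these classes are too small to set against a background. Several of the brightest members did not differ between fractions past the test. lncRNA:CR43242 gave 8.71 and 8.61 in DENR ribosome-bound RNA, against 8.46 and 8.63 in DENR total RNA, and 8.93 and 8.57 in GFP ribosome-bound RNA, against 8.92 and 8.75 in GFP total RNA. The groups overlapped in both treatments, with differences of 0.11 ± 0.16 and -0.08 ± 0.16. Its second probe set, with a mean of 5.70, gave -0.40 and -0.39. lncRNA:CR32368 differed by 0.04 ± 0.14 in DENR and -0.24 ± 0.14 in GFP dsRNA cells, and the alphagamma element by 0.21 ± 0.17 and -0.19 ± 0.17, none past the test.

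Because 12 of the 34 tested members overlap a protein-coding gene in the RefSeq table, their values were set beside those of that gene. This grouping was made after the values had been seen. In DENR dsRNA cells 5 of the 12 overlapping members were called higher and 1 lower, against 1 higher and 3 lower among the 22 others, with 9.13% higher and 5.85% lower over all features. In GFP dsRNA cells the counts were 5 higher and 2 lower among overlapping members, against 1 higher and 3 lower among the others, with 18.7% higher and 11.0% lower over all features. The share called higher was thus 41.7% of overlapping members and 4.55% of the others in both treatments, above and below the background, in a split for which no test was made. Overlapping members were also brighter, with a median level of 4.27 against 2.83, and members with a mean below 3 gave 0 calls. The part of brightness in this split was not tested. Whether a member's probes also bind the overlapping transcript was not tested.

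In some pairs the overlapping gene moved the same way and in others it did not. Cul6, a cullin gene that overlaps 4.5% of CR14117, differed by 1.05 (adjusted p = 0.00222) in DENR and 1.32 (adjusted p = 0.000325) in GFP dsRNA cells, the direction of CR14117. CG32212, which overlaps 46.5% of hpRNA:CR33940, differed by -0.52 (adjusted p = 0.228) in DENR and -1.66 (adjusted p = 0.00130) in GFP dsRNA cells, where hpRNA:CR33940 gave -1.08 and -1.58. CG33229, which overlaps 21.9% of lncRNA:CR42862, went the other way, with -0.93 (adjusted p = 0.00315) in DENR and -1.32 (adjusted p = 0.000250) in GFP dsRNA cells. CG42846, a neighbour 6 bases from lncRNA:CR42862, differed by 0.35 (adjusted p = 0.164) in DENR and 0.89 (adjusted p = 0.00213) in GFP dsRNA cells. The neighbour on the other side, pyx, differed by 0.29 and 0.14, neither called. For the antisense RNA within fbl, a pantothenate kinase gene, the differences of fbl itself were 0.07 (adjusted p = 0.830) and 0.29 (adjusted p = 0.158), neither past the test. mura, around lncRNA:CR42549, gave -0.48 (adjusted p = 0.0786) and -0.12 (adjusted p = 0.636). For CR14798, with -0.61 and -0.92, the gene a6 overlaps 22.5% of the member and gave -0.50 (adjusted p = 0.105) and -0.18 (adjusted p = 0.502). lncRNA:CR32027 lies wholly within Indy, a citrate transporter gene, and neither passed the test in either treatment, with -0.44 ± 0.19 in DENR and 0.03 ± 0.19 in GFP dsRNA cells for the noncoding RNA and -0.19 and 0.56 for Indy. CG17486, the nearest neighbour of CR44101, was higher in ribosome-bound RNA by 1.46 in DENR and 2.0 in GFP dsRNA cells, both called.

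**Figure D4:**
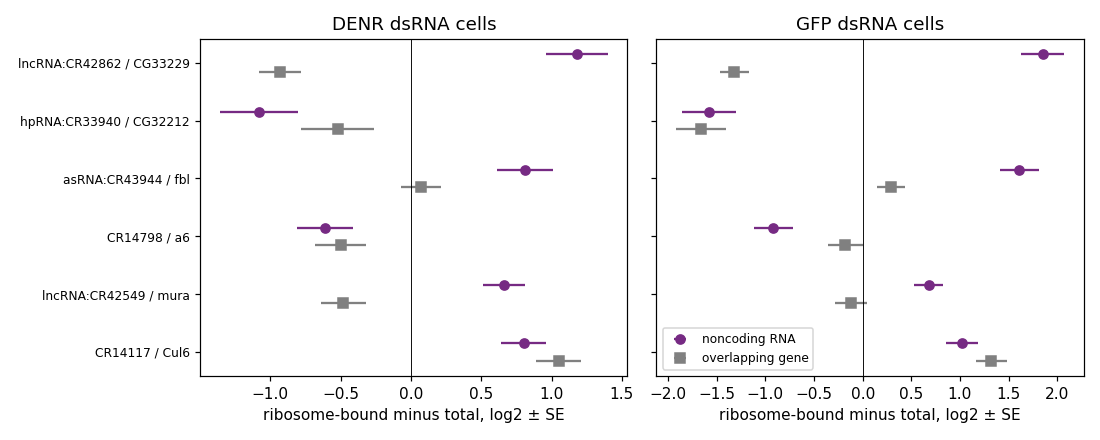
Log2 difference of ribosome-bound minus total RNA (horizontal axes, ± SE) for 6 noncoding RNAs (circles) and the protein-coding gene each overlaps (squares), in DENR dsRNA cells on the left and GFP dsRNA cells on the right. lncRNA:CR42862 and CG33229 lie on opposite sides of 0 in both panels, while CR14117 and Cul6 lie on the same side.

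The second question was which noncoding RNAs changed on DENR knockdown. In ribosome-bound RNA 3 members rose and 0 fell, against a background of 0.653% of all features called higher and 0.692% lower. At an unadjusted p under 0.05 there were 5 of 34 members (14.7%), near the 13.2% of all features. In total RNA 1 member rose and 0 fell, against 0.877% of all features called higher and 0.702% lower. There, 14.7% of members had an unadjusted p under 0.05, against 17.6% of all features. The median difference of members was -0.00 in ribosome-bound and -0.02 in total RNA, against -0.00 and 0.02 for all features. Among the haemocyte markers, 4 of 12 (He, Hml, NimC1 and Sr-CI) fell in each fraction. The part of that change in the differences of noncoding RNAs was not tested.

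CR44101 rose in both fractions. In ribosome-bound RNA it gave 6.69 and 6.71 in DENR dsRNA cells, against 5.73 and 5.74 in GFP dsRNA cells, a difference of 0.96 ± 0.14 (1.95-fold, adjusted p = 0.00955). In total RNA it gave 5.45 and 5.67 in DENR dsRNA cells, against 4.65 and 4.48 in GFP dsRNA cells, a difference of 1.0 ± 0.14 (2.0-fold, adjusted p = 0.00641). Its neighbours CG17486 and CG17883 differed by 0.23 and 0.05 in ribosome-bound RNA and by 0.77 and 0.30 in total RNA, none called. The groups of CR44101 did not overlap in either fraction, and the size of its difference was close in both. In ribosome-bound RNA the call was lost when any of the 4 arrays compared was left out, with values of 0.95 to 0.97 (adjusted p = 0.0874 to 0.107), and in total RNA without the second GFP total array (0.92, adjusted p = 0.0677). Without the first DENR total array the total RNA value was 1.11 (adjusted p = 0.0133).

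lncRNA:CR32368, the member of highest mean signal, rose in ribosome-bound RNA. It gave 11.33 and 11.18 in DENR dsRNA cells, against 10.53 and 10.32 in GFP dsRNA cells, a difference of 0.83 ± 0.14 (1.78-fold, adjusted p = 0.0194). In total RNA it gave 11.17 and 11.26 in DENR dsRNA cells, against 10.68 and 10.64 in GFP dsRNA cells, and the difference of 0.55 ± 0.14 missed the threshold (adjusted p = 0.0826). All 4 DENR arrays lay above all 4 GFP arrays. The ribosome-bound call was lost when any of the 4 arrays compared was left out (0.72 to 0.94, adjusted p = 0.0777 to 0.212), and the total RNA difference passed with cyclic loess (0.62, adjusted p = 0.0364). Its neighbours Tmem43 and syd differed by 0.16 and -0.06 in ribosome-bound RNA, neither called.

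hpRNA:CR32207 rose in ribosome-bound RNA, with 6.72 and 6.74 in DENR dsRNA cells, against 5.86 and 5.47 in GFP dsRNA cells. The difference was 1.06 ± 0.19 (2.09-fold, adjusted p = 0.0311). In total RNA it differed by 0.21 ± 0.19 and the groups lay close together. The ribosome-bound call was lost when any of the 4 arrays compared was left out (0.87 to 1.26, adjusted p = 0.0784 to 0.266). The second hairpin RNA, hpRNA:CR33940, differed by 0.60 ± 0.28 in ribosome-bound and 0.10 ± 0.28 in total RNA, neither past the test. Single arrays moved its ribosome-bound value, to 0.98 without the first and 0.21 without the second GFP ribosome-bound array, and to 0.30 without the first and 0.89 without the second DENR ribosome-bound array. CG32212, which overlaps it, differed by 1.06 in ribosome-bound RNA (adjusted p = 0.0926).

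Other members had differences that did not pass. The alphagamma element gave 8.56 and 8.26 in DENR ribosome-bound RNA, against 7.82 and 7.68 in GFP ribosome-bound RNA, a difference of 0.66 ± 0.17 (adjusted p = 0.102). It was called with an intensity trend and robust prior (adjusted p = 0.0480) and with only the arrays compared (adjusted p = 0.0316). The crossed replicate block, added after the data were seen, also called it (adjusted p = 0.0155). Over all features that block gave 413 calls, against 138, so its call is not separate support. The value of the alphagamma element ran from 0.51 to 0.81 over the alternatives. asRNA:CR43944 differed by 0.78 ± 0.20 in total RNA (adjusted p = 0.0896) and by -0.02 in ribosome-bound RNA. That total RNA value was 0.49 without the first DENR total array (adjusted p = 0.438) and 1.06 without the second (adjusted p = 0.0204). lncRNA:CR42862 likewise differed by 0.67 ± 0.22 in total RNA (adjusted p = 0.169), with 0.35 without the first DENR total array and 0.98 without the second (adjusted p = 0.0377). The values of both RNAs in total RNA thus depended on which DENR total array was used.

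The lowest values belonged to asRNA:CR43964 (1637878_at, arm 2R), which overlaps CG15093. It gave 3.71 and 3.55 in DENR ribosome-bound RNA, against 4.19 and 4.24 in GFP ribosome-bound RNA, and 3.69 and 3.86 in DENR total RNA, against 4.58 and 4.17 in GFP total RNA. The DENR arrays lay below the GFP arrays in both fractions. The differences of -0.59 ± 0.16 (adjusted p = 0.133) and -0.60 ± 0.16 (adjusted p = 0.0997) missed the threshold. With only the arrays compared, asRNA:CR43964 was called lower in ribosome-bound RNA (adjusted p = 0.0363). In total RNA the crossed replicate block gave 903 calls over all features, against 162. There asRNA:CR43964 was called lower (adjusted p = 0.0422), in a setting added after the data were seen. In total RNA it was called lower with quantile normalization within each fraction (-0.68, adjusted p = 0.0472) and with cyclic loess (-0.70, adjusted p = 0.0455), but the value was -0.39 without the first GFP total array (adjusted p = 0.218) and -0.81 without the second (adjusted p = 0.116). The next smallest p-values among lower members were those of lncRNA:CR30055 (-0.25 ± 0.14, adjusted p = 0.535) and lncRNA:CR32027 (-0.30 ± 0.19, adjusted p = 0.567) in ribosome-bound RNA, and of CR17567 (-0.28 ± 0.13, adjusted p = 0.314) and lncRNA:CR43655 (-0.24 ± 0.13, adjusted p = 0.347) in total RNA.

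**Figure D5:**
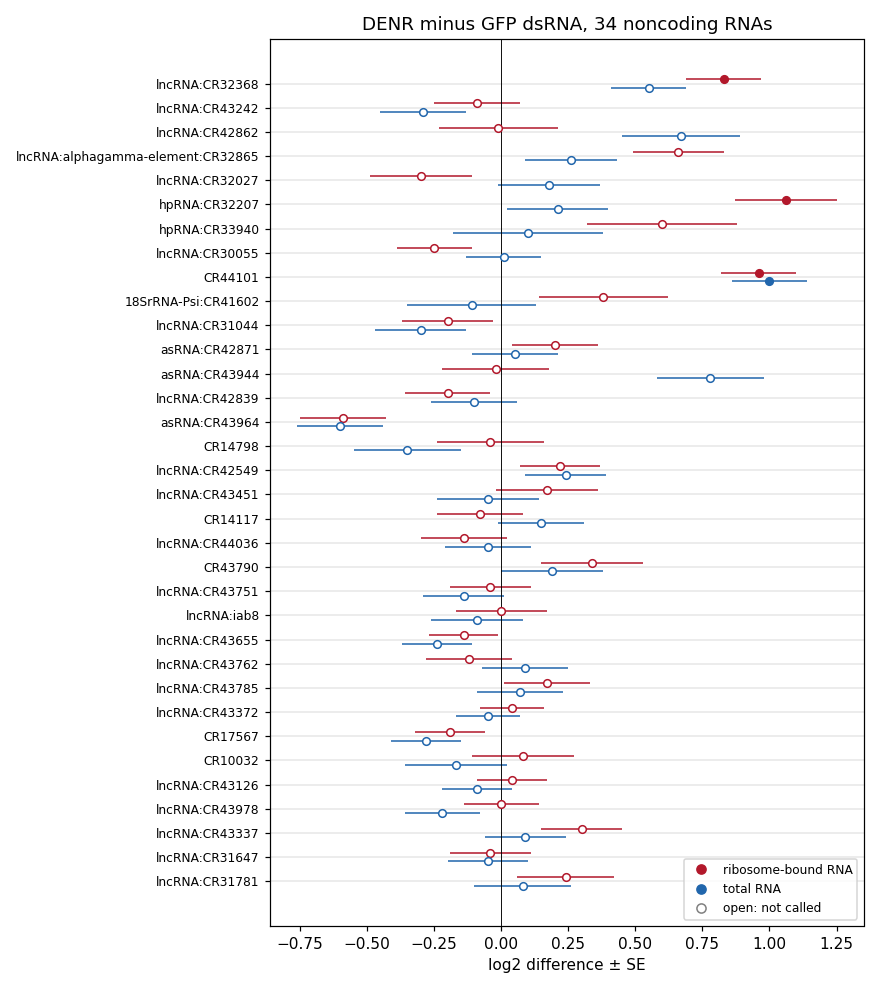
Log2 difference of DENR minus GFP dsRNA cells (horizontal axis, ± SE from limma) for each of 34 noncoding RNAs, in ribosome-bound and in total RNA; filled points were called and open points were not. CR44101 is filled in both fractions at 0.96 and 1.0, and lncRNA:CR32368 and hpRNA:CR32207 are filled in ribosome-bound RNA at 0.83 and 1.06.

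The third question was whether the gap between fractions differed between DENR and GFP dsRNA cells, tested as an interaction in the same limma fit. Of the 34 members 0 were called, and over all 10262 features 0 were called, a background of 0%. At an unadjusted p under 0.05 there were 2 members (5.88%) and 1022 features (9.96%). The members were hpRNA:CR32207, whose difference between the gaps was 0.85 ± 0.27 (unadjusted p = 0.0110, adjusted p = 0.480), and asRNA:CR43944, with -0.80 ± 0.28 (unadjusted p = 0.0180, adjusted p = 0.480). lncRNA:CR42862 gave -0.67 ± 0.32 (adjusted p = 0.502), hpRNA:CR33940 0.50 ± 0.39 (adjusted p = 0.651) and 18SrRNA-Psi:CR41602 0.49 ± 0.35 (adjusted p = 0.617). The gap was larger in size in GFP than in DENR dsRNA cells for 11 of the 11 members called in GFP dsRNA cells, as it was for 87.7% of all 3040 features called there. These were selected by their call in GFP dsRNA cells, so the count is a description and not a test.

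Genes whose products work with noncoding or mitochondrial RNAs were examined as counts, to be read against the 9.13% higher and 5.85% lower of all features in DENR dsRNA cells and the 18.7% higher and 11.0% lower in GFP dsRNA cells. Of 7 dosage compensation genes, partners of the roX RNAs, 2 were higher in ribosome-bound RNA of DENR dsRNA cells (msl-1 by 1.61 ± 0.23 and Unr by 0.49 ± 0.14) and 4 in that of GFP dsRNA cells (also msl-2 and Clamp). Of 5 snoRNP protein genes, Nopp140 and NHP2 were higher in both treatments, by 0.72 and 0.53 in DENR and 1.38 and 0.68 in GFP dsRNA cells. Of 14 genes of mitochondrial gene expression, 0 were called in DENR dsRNA cells and 2 were lower in GFP dsRNA cells, MTPAP (-0.80) and mldr (-1.03). The 69 mitochondrial ribosomal protein genes gave 6 higher and 2 lower calls in DENR dsRNA cells, and 7 higher and 20 lower calls in GFP dsRNA cells, where the share called lower, 29.0%, was above the background and the share called higher, 10.1%, below it. The 65 nuclear-encoded respiratory chain genes gave 2 higher and 3 lower in DENR, and 6 higher and 3 lower in GFP dsRNA cells, and the 39 cytoplasmic ribosomal protein genes 1 higher and 2 lower in DENR, and 2 higher and 1 lower in GFP dsRNA cells. The shares of both lists were below the background in either direction and treatment. On knockdown, 1 gene in these 6 lists was called in either fraction, ATPsynepsilonL of the respiratory chain list, which rose by 1.17 ± 0.13 in ribosome-bound RNA (adjusted p = 0.00298) and 0.77 ± 0.13 in total RNA (adjusted p = 0.0206).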

How the data were processed

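RNA of S2 cells was measured on 8 oligonucleotide arrays, 2 in each of 4 groups. Per the submitters' processing notes the authors used RMA, and what they deposited is a log2 signal for each probe set. That the scale is log2 was read from the range of the values, 0.83 to 12.88, with array medians of 2.32 to 2.48. RMA brings arrays to a common distribution, so a shift of most transcripts in one direction is not visible. Whether all arrays were normalized together, and the software version, are not given in the sources used here. The total count or depth does not apply to arrays, and their number limits the precision.

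Of 18952 probe sets, 183 controls were left out. Of the rest, 13647 had 1 symbol, 402 several and 4720 none in the platform's annotation. With the brightest probe set per symbol, 17104 features remained, and the brightest 60% (10262) were tested. All 101 members matched the RefSeq gene table (Release 6 plus ISO1 MT), 3 of them through an older symbol. That gene table gave types and chromosome arms, and its start and end positions gave overlaps and neighbours. No sequences were used here.

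The 4 group means were fitted to all arrays without covariates in limma 3.58.1 under R 4.3.3, with 4 residual and 5.93 prior degrees of freedom in eBayes. Two-sided p-values were adjusted by Benjamini-Hochberg over the 10262 features, and called at an adjusted p under 0.05. Standard errors rest on the spread pooled over the 4 groups. The script was tested on simulated data. Other settings tried were blocks for the replicate number or the culture (fixed or random), no filter or the brightest 40%, arrays scaled by their medians, by quantiles within a fraction or by cyclic loess, a prior with trend and robust estimation, a test against 1.5-fold, fits of the compared groups alone and fits that left out an array. Crossed replicate numbers (number 1 of a fraction matched with number 2 of the other) and a lowest mean of 5 were added after seeing the data. The crossed block has the sign pattern of the correlations between these same arrays, given below, so its calls are not separate support.

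The members, the gene lists and the rule for naming genes were chosen with earlier results of these data known. The rule named the 8 highest and 8 lowest called members of each comparison (the 3 of smallest p where fewer than 3 were called), members with a name of their own, the 5 brightest, genes overlapping or next to these, and up to 4 called genes of each list. Figures were drawn with matplotlib 3.10.9.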

Additional observations from a re-analysis of the deposited data

How the results depend on the processing

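Of the 25 calls of noncoding RNAs, 25 kept their direction under all alternatives that tested them, and 12 also stayed called whichever single array was left out: 3 in the fraction comparison of DENR dsRNA cells, 9 in that of GFP dsRNA cells and 0 on knockdown. With single arrays left out, the count of called members ran from 4 to 11 in DENR dsRNA cells (10 with all arrays), from 10 to 11 in GFP dsRNA cells (11), from 0 to 3 for knockdown in ribosome-bound RNA (3) and from 0 to 3 for knockdown in total RNA (1). A required change of at least 1.5-fold left 1, 7, 0 and 0 calls in these 4 comparisons. Over all features it left 200, 548, 11 and 17. A mean log2 signal of at least 5 left 6 in DENR and 6 in GFP dsRNA cells, where fewer members were tested. Calls over all features were then 1319 and 2361. With the culture as a fixed replicate block 6 were called in DENR dsRNA cells, while calls over all features were 915, against 1537. On knockdown in ribosome-bound RNA, 5 were called with only the arrays compared and 5 with the crossed replicate block, while calls over all features were 395 and 413, against 138. On knockdown in total RNA the count was 2 with quantile normalization within each fraction, 3 with cyclic loess, 2 with an intensity trend and robust prior, 0 with only the arrays compared and 5 with the crossed replicate block, while calls over all features were 217, 200, 222, 46 and 903, against 162. The causes of these changes were not tested. The interaction called 0 members under all alternatives.

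The replicate number as a block gave 9, 11, 2 and 1 calls and 0 for the interaction. Over all features that setting gave 1343, 2792, 95 and 116 calls, and 1 for the interaction. The labels do not say whether a number marks a shared culture or day, and the data did not settle it. Deviations of same-numbered arrays correlated at 0.38 between total RNA groups and 0.27 between ribosome-bound groups, but at -0.20 to -0.38 across fractions, so the block was kept as an alternative and the numbers used as names. No scaling moved the median of all features by more than 0.1. Signal near background limits the 67 untested and the 14 dimmest tested members.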

Other observations

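Of the untested members with a name of their own, lncRNA:mimi had a mean log2 signal of 1.84, and lncRNA:noe and asRNA:Eig63F-2 had means of 1.39. Without the filter on dim features all 101 members were tested, against 34 with it. Between the fractions, 11 members were then called in DENR and 12 in GFP dsRNA cells, against 10 and 11 with the filter. Calls over all 17104 features were 1478 and 2966 without the filter, against 1537 and 3040 over the 10262 features that passed it. Where a symbol had several probe sets, they often lay at different levels: the 5 probe sets of lncRNA:iab8 had means between 1.51 and 2.55, and those of lncRNA:CR34047 between 1.40 and 1.92. The 3 probe sets of lncRNA:CR34047, all below the filter, gave -0.45, -0.25 and -0.30 for ribosome-bound minus total RNA in GFP dsRNA cells, and -0.08, 0.02 and 0.01 in DENR dsRNA cells, values given without a test and chosen after they were seen.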
